A study of Amphiprion ocellaris with 30 samples.

Results

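This account compares whole larvae of the clownfish Amphiprion ocellaris that were exposed to SR9243 with larvae exposed to T3. It uses 20 of the 30 libraries of the series, 10 labelled SR9243 and 10 labelled T3, chosen by these labels and not by any measured value. SR9243 was given at 1e-07 M and T3 at 1e-07 M to wild-type larvae in beakers, at 27°C in sea water, and RNA was taken from the entire larva 5 days into the treatment. The titles of the T3 libraries carry the further tag IOP, which the labels leave unexplained, so a second element in that treatment cannot be told apart from T3. The series also holds 10 libraries of larvae in DMSO, the solvent, at 0.0001%. They are wild-type larvae of the same time point, and they entered no test between the treatments and are given below as a level for orientation. Which beaker, clutch or number of larvae stands behind a library is not labelled. The p-values measure the spread between libraries, part of which may be technical, and treat every library as independent. Libraries that shared a beaker or clutch would not be independent, and p-values could then be too small. A difference between beakers or clutches could not be told apart from a difference between the treatments. Independence of the libraries was not tested.

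Both compounds are ligands of nuclear receptors, proteins that bind DNA and switch genes on or off according to the ligand they hold. T3, the active thyroid hormone, binds the thyroid hormone receptors, and in bony fish it drives the change of a larva into a juvenile. In clownfish this change includes the appearance of the white bars. SR9243 is called an antagonist of LXR in the title of the series. LXR, the liver X receptor, is activated by oxidised cholesterol and in mammals turns on genes of cholesterol export and fatty acid synthesis. Both receptor types act as dimers with the same partner, the retinoid X receptor.

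The table names genes by Ensembl ID alone, and none of these IDs could be given a symbol here. Marker genes of tissues and receptor targets were therefore not checked, and only the 2 largest differences in each direction are given by ID, with no role. Values are variance-stabilised counts, a scale close to log2 at high levels and compressed at low levels, so differences understate the change of weakly expressed genes. Of 22816 genes, 22328 exceeded the table's lowest value in 10 or more of the 20 libraries and were tested. The total counts behind the libraries are not in the table, so depth is unknown. In its place, genes listed at the lowest value numbered 592 to 705 per SR9243 library and 618 to 730 per T3 library, with means of 648 ± 40.8 and 657 ± 35.1 (SD, n = 10 each), which did not differ beyond the spread (permutation test, two-sided, adjusted p = 0.632). T3 library 2 stood apart from its treatment in its overall distance, and it and SR9243 library 3 also in their place between the treatments. In part of the genes, the difference between the treatments varied between libraries 1 to 5 and 6 to 10. Values without T3 library 2 or SR9243 library 3, and within these numbers, are given further on.

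SR9243 and T3 larvae differed in 9213 of the 22328 tested genes, which is 41.3% (limma, Benjamini-Hochberg adjusted p under 0.05). Such genes are termed called below. Expression was higher with SR9243 in 4453 called genes (19.9% of those tested) and lower in 4760 (21.3%). Most differences were small: called differences had a median size of 0.39, and the middle of the called genes lay between 0.29 and 0.55 (quartiles). In the whole larva, a lower value may stem from fewer cells of a type or from less RNA per cell, and these cannot be told apart.

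Large differences were more often lower than higher with SR9243. A difference of at least 0.5 was called in 2806 genes (12.6% of those tested), 1123 higher with SR9243 (5.03%) and 1683 lower (7.54%). A difference of at least 1 was called in 614 genes (2.75% of those tested), of which 220 (0.985%) were higher with SR9243 and 394 (1.76%) lower. A difference of at least 2 was called in 36 genes that were higher with SR9243 (0.161%) and in 46 that were lower (0.206%). The 5 largest differences, however, were all higher with SR9243, though 3 of these 5 IDs hold equal values and are not separate measurements. The split of all calls depended on the scaling. With library medians set equal, 5025 genes were higher with SR9243 and 4188 lower, and with quantile normalisation 4720 and 4197. Library medians averaged 6.86 ± 0.011 in SR9243 and 6.89 ± 0.01 in T3 libraries (SD, n = 10 each), a difference of -0.028 (permutation test, two-sided, adjusted p = 0.00036). The excess of lower genes among differences of at least 1 held under both scalings, with 237 higher and 361 lower at equal medians, and 209 higher and 374 lower after quantile normalisation.

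**Figure D1:**
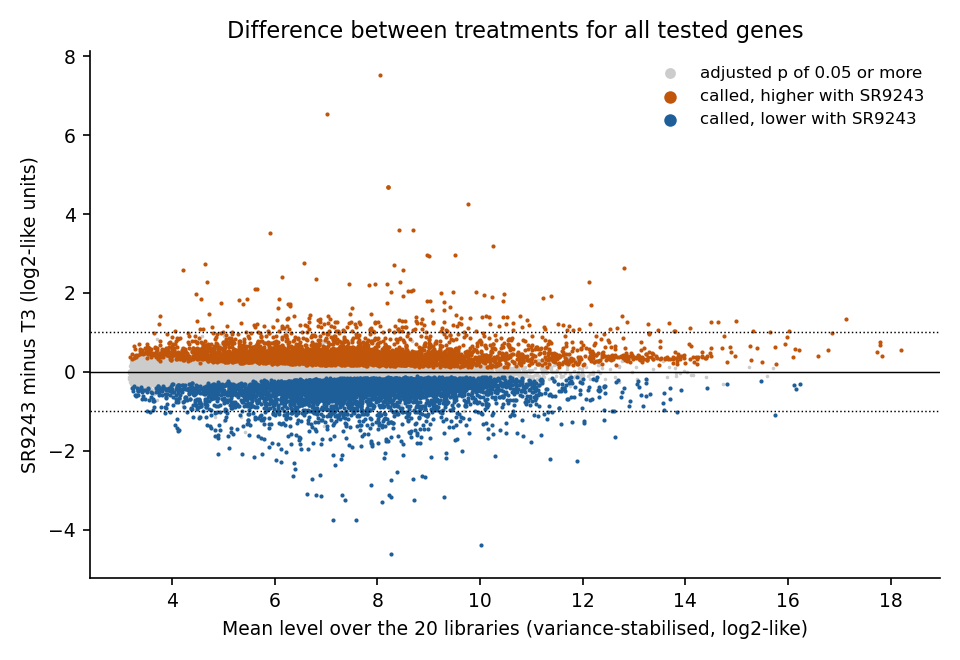
Difference between treatments (SR9243 minus T3, vertical axis, log2-like units) against the mean level of each of the 22328 tested genes over the 20 libraries (horizontal axis, log2-like units). Points above 0 are higher with SR9243, coloured points passed the test, dotted lines mark a difference of 1 in either direction, and of the 100 most abundant genes 74 coloured points lie above 0 and 11 below.

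The libraries of the 2 treatments did not overlap at all in 1374 genes (6.15% of those tested). SR9243 libraries were all above T3 libraries in 636 genes (2.85%) and all below them in 738 (3.31%). This balance turned with the scaling: once every library had the same median, 784 genes lay above and 630 below, and quantile normalisation gave 705 above and 637 below. All 1374 were also called. Their median size was 0.69, against 0.39 over all called genes. Separation was thus seen for differences of modest size too, the smallest being 0.14.

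The largest difference was in ENSAOCG00000003252, which was high in SR9243 larvae and close to the bottom of the scale in T3 larvae. It ran from 11.29 to 12.44 with a median of 11.70 in SR9243 libraries, and from 3.86 to 4.81 with a median of 4.38 in T3 libraries. The nearest libraries of the 2 treatments were 6.48 apart, so every SR9243 larva library carried far more of this transcript than every T3 library. The difference was 7.53 (SE 0.16, limma adjusted p = 3.0e-20), and it also had the smallest p of all tested genes. DMSO libraries ran from 11.19 to 12.70, a range that takes in all 10 SR9243 libraries.

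ENSAOCG00000011699 showed the second largest difference in the same direction. SR9243 libraries lay between 9.40 and 12.45 with a median of 10.13, and T3 libraries between 2.88 and 4.29 with a median of 3.72. T3 library 5 was at the lowest value of the table, and the other 9 T3 libraries were above it. Among SR9243 libraries, library 3 stood apart at 12.45, with the next at 10.90. The difference was 6.54 (SE 0.28, limma adjusted p = 3.2e-14), and 6.31 (SE 0.19, limma adjusted p = 1.4e-16) without SR9243 library 3. DMSO libraries had a mean of 11.70 ± 1.07 (SD, n = 10), against 10.29 ± 0.89 for SR9243 and 3.75 ± 0.42 for T3 libraries, so the SR9243 mean lay between the others.

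ENSAOCG00000020520 was the gene with the largest difference in the opposite direction. SR9243 libraries ran from 5.55 to 6.73 with a median of 5.97, and T3 libraries from 10.14 to 11.01 with a median of 10.55. The ranges were 3.41 apart. The difference was -4.61 (SE 0.13, limma adjusted p = 5.1e-18), the second smallest p of all tested genes. DMSO libraries averaged 5.88 ± 0.65 (SD, n = 10), close to the 5.97 ± 0.34 of SR9243 libraries and far from the 10.58 ± 0.27 of T3 libraries.

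ENSAOCG00000000554 followed, and here the 3 groups formed steps. SR9243 libraries ran from 6.85 to 9.03 with a median of 7.74, T3 libraries from 11.15 to 13.01 with a median of 12.41, and DMSO libraries from 3.41 to 5.72 with a median of 4.26. No ranges of these groups overlapped. The difference between the treatments was -4.38 (SE 0.26, limma adjusted p = 1.2e-11). SR9243 larvae were therefore well below T3 larvae in this gene while lying above every DMSO library.

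**Figure D2:**
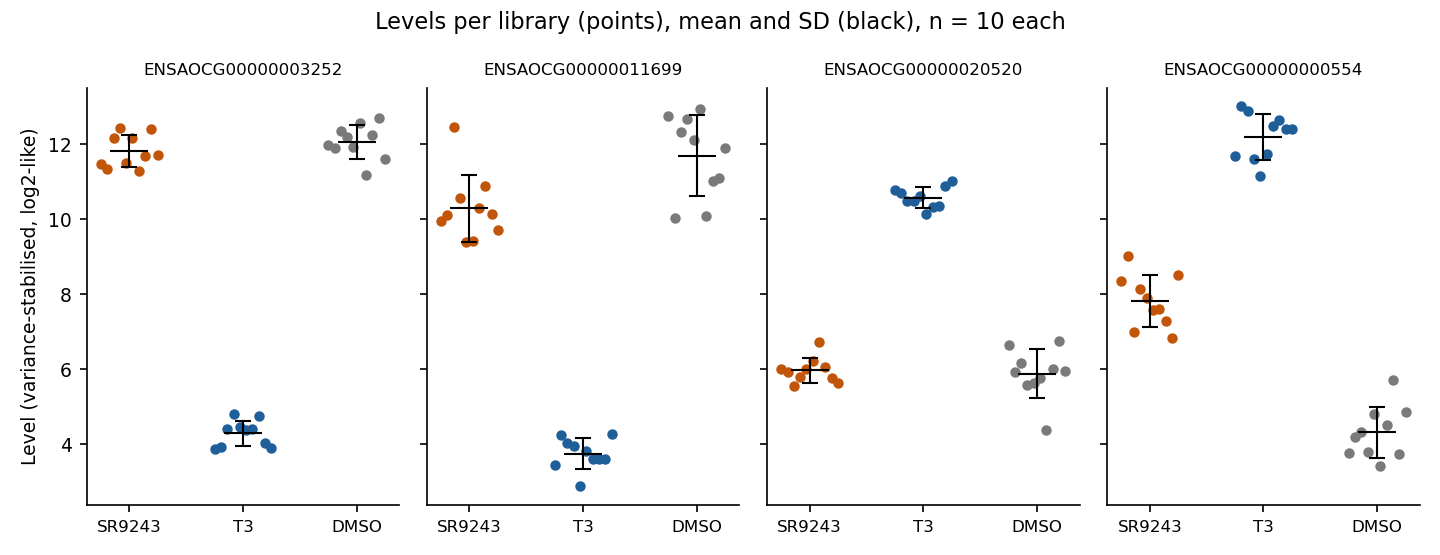
Levels of the 4 genes given by ID, the 2 largest differences in each direction (vertical axis, log2-like units), with 1 point per library and the mean and SD in black for 10 SR9243, 10 T3 and 10 DMSO libraries. SR9243 and DMSO means lie at similar heights in ENSAOCG00000003252 and ENSAOCG00000020520, while in ENSAOCG00000000554 SR9243 lies between T3 and DMSO. In ENSAOCG00000020520, DMSO library 7 lies below all SR9243 points, at 4.39.

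The place of the DMSO mean was then read for every called gene, as a description with no test. The DMSO mean was nearer to the SR9243 mean than to the T3 mean in 7311 of the 9213 called genes (79.4%), against 58.3% of the genes that were not called. The SR9243 mean lay between the DMSO and T3 means in 5292 called genes (57.4%), and 48.7% of the uncalled genes had this order. The DMSO mean lay between the treatments in 3114 called genes (33.8%), against 17.8% of the uncalled genes, so that the treatment means lay on opposite sides of the solvent level. The T3 mean lay between DMSO and SR9243 in 807 (8.76%), against 33.5% of the uncalled genes. DMSO library 7 lay 0.722 from the other DMSO libraries (root mean square over genes), and library 4, the next farthest, 0.437. Only library 7 stood apart in this distance. Without DMSO libraries 4 and 7, SR9243 was the middle mean in 5000 called genes, DMSO in 3180 and T3 in 1033 (11.2%). These shares describe order only, and many of these means differ by less than the spread between libraries. Called genes were chosen by the gap between SR9243 and T3, which by itself bears on these shares.

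Among genes with a difference of at least 1, the order was more uniform. Of the 394 genes that were lower with SR9243, the SR9243 mean lay between DMSO and T3 in 315 (79.9%), and in 376 (95.4%) DMSO was nearer to SR9243. Their median level was 6.78 in SR9243, 8.30 in T3 and 6.22 in DMSO larvae. Of the 220 genes that were higher with SR9243, the SR9243 mean lay between DMSO and T3 in 145 (65.9%), and DMSO was nearer to SR9243 in 206 (93.6%). Their median levels were 9.08 in SR9243, 7.41 in T3 and 9.17 in DMSO larvae. The T3 mean was in the middle for 1 of the 220 and 2 of the 394 genes. Without DMSO libraries 4 and 7, it was in the middle for 5 of the 220 and 0 of the 394. These genes were chosen by the gap between SR9243 and T3, so the rarity of this order is partly set by that choice.

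**Figure D3:**
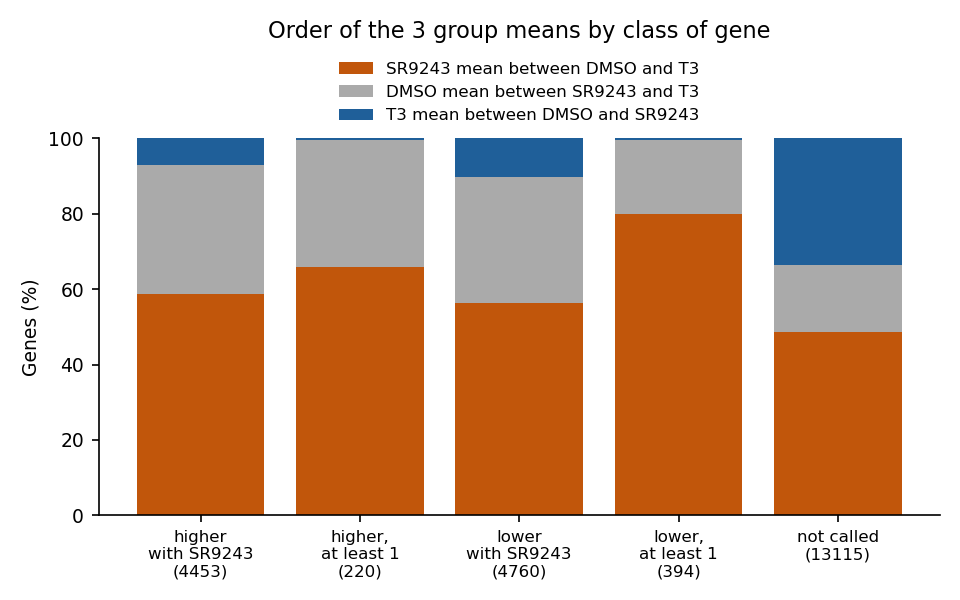
Share of genes (vertical axis, %) with each order of the 3 group means, for genes called higher or lower with SR9243 than with T3, for those with a difference of at least 1, and for genes not called (number of genes in brackets). The part in which the SR9243 mean is in the middle is 79.9% in the class lower by at least 1 and 48.7% among genes not called.

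Ranges of single libraries were then compared with those of DMSO. In the 1374 genes whose SR9243 and T3 libraries did not overlap, the DMSO libraries were clear of the T3 libraries alone in 839, clear of the SR9243 libraries alone in 4, clear of both in 61 and of neither in 470. In all of these 61 genes SR9243 was the middle group. They divided into 18 that were higher with SR9243 than with T3 and 43 that were lower, ENSAOCG00000000554 among them. These counts cover only genes chosen for the gap between SR9243 and T3. The remaining tested genes were not counted this way, so no share over all tested genes stands beside them. They therefore describe these 1374 genes alone. DMSO library 7, which stood apart from the other DMSO libraries in 10.7% of tested genes, is included.

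Differences were not spread evenly over expression levels. With the tested genes cut by mean level into terciles, 26.0% of the low, 43.2% of the intermediate and 54.6% of the high tercile were called. Called differences had median sizes of 0.45, 0.38 and 0.37 in these terciles. Genes at low levels also varied more between libraries, with a median SD of 0.30 in SR9243 and 0.29 in T3 libraries in the low tercile, against 0.17 and 0.16 in the high one. Genes higher with SR9243 outnumbered those lower in the low tercile, at 1169 against 765, while the high tercile held 1731 higher and 2333 lower. These tercile counts were made on the values as deposited alone, and the split of all calls turned over under the other scalings.

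The most abundant transcripts went against this balance of the high tercile. Of the 100 most abundant genes, 85 were called, 74 higher with SR9243 and 11 lower, and of the 20 most abundant all were called, 17 higher and 3 lower. The background is 19.9% of tested genes called higher. At a mean level of 12 to 14, 160 of 244 genes (65.6%) were higher with SR9243 and 48 lower. The sizes of the 160 had quartiles of 0.33 and 0.51 around a median of 0.39. Those of all genes called higher were close to this, with quartiles of 0.30 and 0.50 around a median of 0.38. At a level of 14 or more, 52 of 67 genes (77.6%) were higher and 7 lower, with a median of 0.53 among those higher. From 8 to 10 the shares were 19.5% higher and 32.8% lower. The level ranges were chosen after the plot of difference against level was seen, and so were the other scalings given next. Those scalings cover the most abundant genes only. The shares by level range were made on the values as deposited alone.

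This excess at the top was as large with library medians set equal (74 higher and 10 lower of the 100). Quantile normalisation, which gives all libraries the same distribution of values, reduced it to 30 higher and 25 lower. Of the 20 most abundant genes, 17 were higher and 3 lower at equal medians, and 9 and 4 after quantile normalisation. The 20 most abundant genes of a library made up 22.2% to 26.7% of the sum of its values turned back from the log2 scale with SR9243, and 18.1% to 21.5% with T3, ranges that did not overlap. DMSO libraries overlapped both, from 18.7% to 24.4%. The means were 24.6% ± 1.42 in SR9243, 19.4% ± 1.03 in T3 and 21.5% ± 1.76 in DMSO libraries (SD, n = 10 each). These shares are approximate, since the scale is only close to log2. Their part in the split of calls was not tested beyond these scalings.

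Loss or gain of a transcript to the limit of detection was rare. No gene was above the lowest value in all 10 libraries of one treatment and at it in all 10 of the other. Genes detected above the lowest value in 5 or more additional SR9243 libraries, relative to T3, numbered 45 of 22816, of which 26 were called higher with SR9243. The reverse held for 53 genes, of which 27 were called lower. Over all tested genes, 19.9% were called higher with SR9243 and 21.3% lower. The genes counted here were chosen by a measure that favours one direction, and the 488 untested genes could not be called. At least 7 more libraries were counted for 7 genes with SR9243 and for 6 genes with T3. With depth unknown, a gene at the lowest value is not shown to be absent.

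Some IDs are not separate measurements. In 149 tested genes the values in all 20 libraries equalled those of at least 1 other gene (tolerance 1e-06), forming 72 sets of up to 4 genes, and the equality extended to the DMSO libraries. Among the 5 largest differences, 3 are one such set, each of 4.68. Of the 149, 48 were called. Counting each set once leaves 9188 called genes, 4444 higher and 4744 lower with SR9243, so these copies bear little on the totals. None of the 4 genes given by ID and none of the 100 most abundant had an equal copy.

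The spread between libraries was not shown to differ between the treatments. As root mean square over genes, a library lay off the mean of the remaining libraries of its treatment by 0.312 ± 0.0302 with SR9243 and 0.302 ± 0.023 with T3 (SD, n = 10 each; permutation test, two-sided, adjusted p = 0.632). Without T3 library 2, the T3 mean was 0.295 and the difference from SR9243 0.017 (permutation test, two-sided, adjusted p = 0.201). The median SD of a gene was 0.23 with SR9243 and 0.21 with T3. In 56.7% of the tested genes the SD was larger with SR9243. Among genes called lower with SR9243 this share was 65.4%, and among those called higher it was 50.5%. The median SD of the lower genes was 0.23 with SR9243 and 0.19 with T3, at median levels of 7.43 and 7.91.

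Each library was placed on the line through all tested genes that runs from the T3 mean (0) to the SR9243 mean (1), leaving its own values out of the means. SR9243 libraries lay at 0.786 to 1.26 with a median of 0.926, and T3 libraries at -0.000412 to 0.232 with a median of 0.0343. The line is set by the other libraries of both treatments, and the separation was not tested. SR9243 library 3 lay farthest from T3, at 1.26, and T3 library 2 lay nearest to SR9243, at 0.232. DMSO libraries, which did not enter the line, lay at 0.979 to 1.5 with a mean of 1.17 ± 0.161 (SD, n = 10), on average beyond the SR9243 mean on the side away from T3. In 625 genes (2.80%) T3 library 2 was set apart from the other 9, low in 495 and high in 130, by Dixon's criterion at 95%, which judges the gap to the nearest library against the range. Other libraries of the 2 treatments were set apart in at most 1.04% of genes. SR9243 library 8 had the largest distance to the rest of its treatment, at 0.371. Without T3 library 2, 9455 genes were called, and without SR9243 library 3, 8373. Without SR9243 library 8, 9640 were called.

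**Figure D4:**
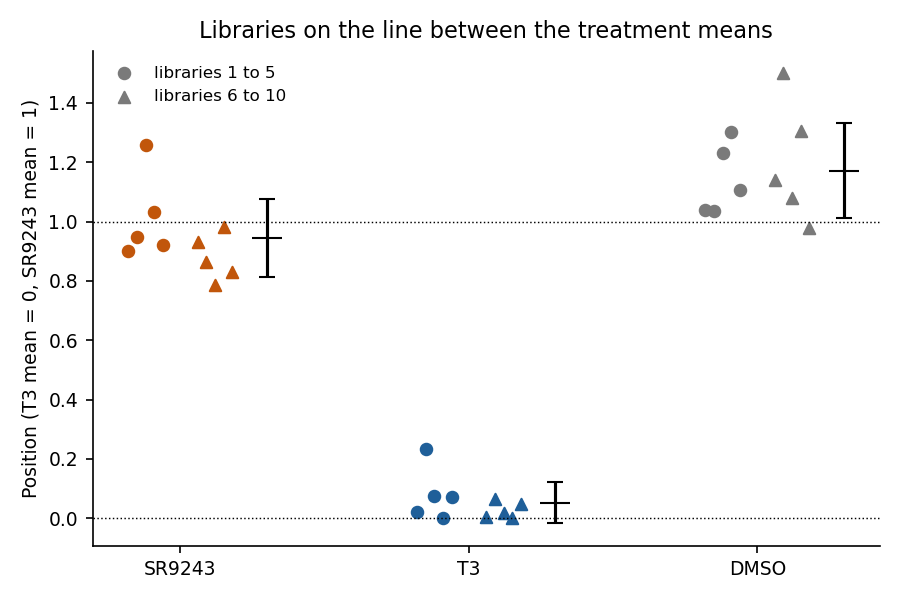
Position of each library on the line from the T3 mean (0) to the SR9243 mean (1) over all tested genes (vertical axis), with circles for libraries 1 to 5 and triangles for 6 to 10 of each group and the mean and SD in black. SR9243 points lie between 0.786 and 1.26, T3 points at or below 0.232, and the 10 DMSO points between 0.979 and 1.5.

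The difference between the treatments varied with the library numbers, to which the labels give no meaning. In 2092 genes (9.37% of those tested) the difference between SR9243 and T3 was not the same in libraries 1 to 5 as in 6 to 10 (limma, interaction of treatment and number range, adjusted p under 0.05). In 1381 of them it was more positive in libraries 6 to 10, with medians of 0.49 in libraries 6 to 10 and -0.48 in libraries 1 to 5. In 1129 of these the direction turned over. Within SR9243 these genes were higher in libraries 6 to 10 than in 1 to 5, by a median of 0.47, and within T3 they were lower, by a median of -0.41. The other 711 genes showed the reverse, with medians of -0.21 in libraries 6 to 10 and 0.43 in libraries 1 to 5. An earlier look at these data led to these number ranges, so the count of 2092 is a description and no independent test. The genes were also chosen by the interaction test, so the medians describe them and support nothing. Of the 2092 genes, 661 (31.6%) were among the 9213 called between the treatments, against 41.3% of all tested genes. That fit holds no number term, so an interaction enters its spread, and a smaller share is favoured in advance. Within 1 treatment, libraries 1 to 5 and 6 to 10 were not tested against each other. A shift between the number ranges common to both treatments was called in 5 of the 22328 tested genes (limma, adjusted p under 0.05). The same term had an unadjusted p under 0.05 in 2908 genes, where chance alone gives about 1116. A weaker common shift is therefore not shown to be absent. The source of the interaction was not tested.

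The treatments were also compared within these number ranges, in 2 ways. With the ranges set crosswise, SR9243 libraries 6 to 10 were set against T3 libraries 1 to 5, and SR9243 libraries 1 to 5 against T3 libraries 6 to 10. This arrangement was chosen because an earlier look at these data had shown that SR9243 libraries 6 to 10 resemble T3 libraries 1 to 5, so it removes the interaction just described, and its agreement is no independent support. With the ranges kept together, libraries 1 to 5 of both treatments and libraries 6 to 10 of both treatments were compared, an arrangement added after the crosswise values were seen. In either arrangement the pair of comparisons shares no library.

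Crosswise, 4099 genes were called between SR9243 libraries 6 to 10 and T3 libraries 1 to 5 (18.4%), and 8411 between SR9243 libraries 1 to 5 and T3 libraries 6 to 10 (37.7%). Called in both and in one direction were 3060 genes, 1423 higher and 1637 lower with SR9243, and 6 were called in opposite directions. The sign of the difference was the same in 76.2% of the tested genes, and the Pearson correlation of the differences across the 22328 genes, which are not independent replicates, was 0.782. By the same numbers, 8811 genes were called in libraries 1 to 5 (39.5%) and 5797 in libraries 6 to 10 (26%). Here 3219 genes were called in both in one direction and 559 in opposite directions, the sign was shared by 69.1% of the tested genes, and the correlation was 0.519. The agreement between the 2 comparisons thus depended on how the libraries were arranged.

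Genes with large differences over the 20 libraries mostly kept their direction in both arrangements. Of the 614 genes with a called difference of at least 1 over the 20 libraries, all 614 had that sign in both crosswise comparisons and 613 in both comparisons by the same numbers. In both comparisons of an arrangement, 565 of them were called crosswise and 566 by the same numbers. These genes were chosen over the same libraries, so their sign is a description. Their difference over the 20 libraries is the mean of either pair of comparisons, which favours a shared sign in advance. The number of called differences of at least 1 did vary over the 4 comparisons, from 198 to 398 higher and from 337 to 550 lower. The difference of ENSAOCG00000003252 lay between 7.50 and 7.56 over the 4 comparisons, and that of ENSAOCG00000011699 between 6.31 and 6.78. That of ENSAOCG00000020520 lay between -4.75 and -4.47, and that of ENSAOCG00000000554 between -4.77 and -3.99.

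**Figure D5:**
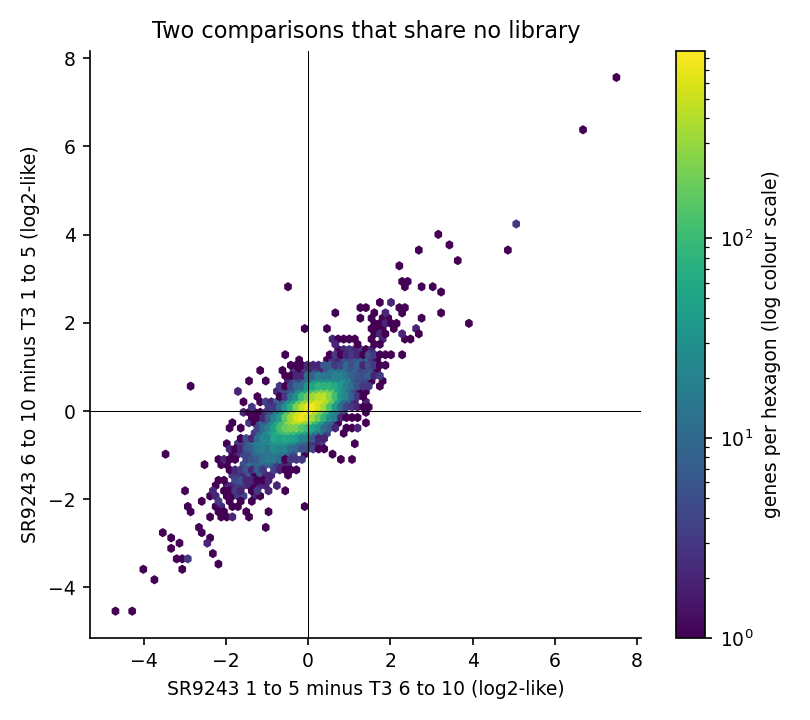
Difference between SR9243 and T3 (SR9243 minus T3, log2-like units) in libraries 6 to 10 of SR9243 and 1 to 5 of T3 (vertical axis) against the same in libraries 1 to 5 of SR9243 and 6 to 10 of T3 (horizontal axis), with colour for the number of genes per hexagon on a log scale. The comparisons share no library but were arranged after these libraries were seen to resemble each other. The Pearson correlation across the 22328 genes was 0.782, and the 4 genes given by ID lie at the ends of the diagonal.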

How the data were processed

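Whole larvae were the RNA source, and the libraries were stranded, poly(A)-selected and read as pairs of 150 bases, per the labels. The submitters' processing notes name FastQC 0.11.8 and kallisto 0.46.1. The sources used here give no genome build, no annotation and no tool for the variance stabilisation. The authors deposited variance-stabilised normalised counts, close to log2. Their minimum, 2.88, occurred in every library and was read as a count of 0. All 30 columns were matched to samples by title.

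Genes over this minimum in 10 or more of the 20 SR9243 and T3 libraries were tested in R 4.3.3 with limma 3.58.1 (treatment as the only factor, eBayes with trend, two-sided, Benjamini-Hochberg threshold 0.05). The model was tested on simulated data. These values were drawn independently for each gene and library, without number ranges or libraries set apart, so they bear on the fit alone. Values per library were compared by 100000 permutations, adjusted over 3 tests (Python 3.11.15, SciPy 1.17.1). The reference table of 28286 genes held 0 Ensembl IDs, so the 27 gene lists were not applied. Without symbols, the rule named the 2 largest differences in each direction. The comparison, the lists and the number ranges, also as set crosswise, were chosen with earlier results of these data known. Alternatives covered filters, scalings, variance models, weights, a rank test, a replicate block and leaving out libraries.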

Additional observations from a re-analysis of the deposited data

Results flagged for a closer look

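Single libraries stood apart from their group in 6 of 27 groups of values examined, by a gap to the nearest library that was wide for the group's range (Dixon's criterion at 95%). Chance alone gives this in about 5% of groups, and groups that share a library are not independent. SR9243 library 3 was the highest of its treatment for ENSAOCG00000011699, at 12.45, and on the line from the T3 to the SR9243 mean, at 1.26. T3 library 2 was the highest of its treatment on the same line, at 0.232, and in its distance to the other T3 libraries, at 0.362. DMSO library 7 had a distance of 0.722 to the other DMSO libraries and the lowest DMSO value of ENSAOCG00000020520, at 4.39. It entered no test between the treatments.

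The difference between SR9243 and T3 was not the same in libraries 1 to 5 and 6 to 10 in 2092 genes (limma interaction, adjusted p under 0.05). This count lay between 1710 and 2442 with each library left out in turn. It rests on number ranges chosen after an earlier look at these data, so it is a description.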

How the results depend on the processing

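Over 17 alternatives beside leaving out libraries, the total of 9213 called genes stayed within 1.5 times except in 3. SR9243 libraries 6 to 10 against T3 libraries 1 to 5 alone gave 4099 genes (2017 higher and 2082 lower with SR9243), and libraries 6 to 10 of both treatments 5797 (2907 and 2890). The comparisons with SR9243 libraries 1 to 5, with as many libraries, gave 8411 and 8811, and the cause was not tested. A minimum difference of 0.5 gave 2806 genes (1123 higher and 1683 lower), which is stricter by construction. Differences of at least 1 numbered 398 higher in libraries 6 to 10 of both treatments, and otherwise 198 to 324 higher. Over all 16 alternatives that gave such counts, 337 to 550 were lower. Leaving out each library gave totals of 8373 to 9640, 4022 to 4629 higher and 4351 to 5011 lower. The 4 genes given by ID kept their direction and call in every alternative that tested them, with ENSAOCG00000011699 dropped where all 20 libraries had to be above the lowest value. With all 3 groups fitted, 7857 genes were called. Pairing by library number was examined on values with the treatment mean of each gene subtracted. On these values, library numbers did not pair the treatments. Same-numbered libraries correlated above 0.1 in 1 of 10 pairs, and no SR9243 library correlated best with the T3 library of its number. The replicate block gave 8441 calls. The number ranges went together crosswise on the same values. Correlations were above 0.1 in 29 of 50 pairs of opposite ranges (median 0.112) and in 2 of 50 pairs of the same range (median -0.124). Subtracting the mean favours opposite signs of these medians, so they are 1 observation. The ranges were also chosen from these data, so the medians are no independent support. Within SR9243, libraries of the same range correlated with a median of 0.016, and those of opposite ranges with -0.2035. Within T3 these medians were 0.072 and -0.255. With the ranges chosen from these data, these values are a description too, and their source was not tested. A term for the crosswise pairing of the treatments gave 9928 calls. The median of a library differed between treatments with each library left out, by -0.0305 to -0.0262. The DMSO mean was nearer to SR9243 in 7311 called genes, and the DMSO median or DMSO without libraries 4 and 7 gave 7212 and 7013. The gene lists were not run, for want of symbols. Depth is unknown, so weakly expressed genes that were not called are not shown to be alike.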
